A study of Mus musculus with 2 samples.

Results

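The 7 genes described here encode receptor chains for the cytokines that drive myeloid and erythroid blood formation: Epor, Csf3r, Csf2ra, Csf2rb, Csf2rb2, Il3ra and Il5ra. Accessible chromatin around them was mapped by ATAC-seq, an assay that inserts sequencing adapters where DNA is not packed away, in mouse common myeloid progenitors. Such cells of the bone marrow give rise to granulocytes, monocytes, megakaryocytes and erythroid cells. The study has 1 group of 2 libraries, each made from 50000 primary cells of C57BL/6J males aged 5 to 6 weeks, with no treatment and no second cell type named in the labels. Both libraries carry the same donor label, and whether the mice were separate is not stated, so the spread between them may be technical. The deposited data are peak lists on the mm10 assembly. A region was a merged run of overlapping peaks in the conservative list, which holds peaks that passed a threshold on the irreproducible discovery rate (IDR), a measure of whether a peak ranks alike in both replicates. A region was counted for a receptor gene as a promoter region if it came within 1 kb of any annotated start of that gene. It was counted as a distal region if the nearest start of a protein-coding gene, within 100 kb of its summit, was that of the receptor gene. By this rule the 7 genes, of 20807 protein-coding genes on chromosomes 1 to 19, held 25 of the 65789 regions: 10 promoter regions and 15 distal regions.

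All 7 proteins belong to the class I cytokine receptors, which have no kinase of their own and pass the signal on through Janus kinases, chiefly JAK2, and STAT factors, chiefly STAT5 and, for the G-CSF receptor, STAT3. Epor and Csf3r work as pairs of like chains: the erythropoietin receptor keeps erythroid progenitors alive and dividing, and the G-CSF receptor drives neutrophil production. Csf2ra, Il3ra and Il5ra are the alpha chains that bind GM-CSF, IL-3 and IL-5, and each signals with the common beta chain Csf2rb. Mice carry a second beta gene next to it, Csf2rb2, whose product pairs only with the IL-3 alpha chain. The genes for the GM-CSF and IL-3 alpha chains lie in the pseudoautosomal region of the human sex chromosomes, whereas in the mouse they lie on autosomes.

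Marker genes were read beside the 63.5% of all protein-coding genes that had a promoter region in the conservative list. A promoter region was listed for 10 of 10 genes taken as markers of the progenitor (Kit, Cd34, Flt3, Myb, Gata2, Runx1, Spi1, Cebpa, Mpo and Fcgr3), not all of them particular to it. It was listed for 0 of 6 markers of mature neutrophils. It was also listed for 3 of 5 macrophage markers, 3 of 4 late erythroid markers, 3 of 5 markers of mast cells, basophils and eosinophils, 2 of 5 B cell markers and 1 of 5 T cell markers. Read from each replicate's own IDR-thresholded list, replicate 1 first, these became 9 and 9 for the progenitor (Mpo in neither), 0 and 0 for neutrophils, 3 and 1 for macrophages and 3 and 2 for late erythroid cells. They were 1 and 0 for mast cells, basophils and eosinophils, 1 and 2 for B cells and 1 and 1 for T cells. In bulk libraries, fewer cells with an open region and less opening per cell cannot be told apart. An open promoter is not transcription, and the part of other cells in the results below was not tested. The own IDR-thresholded list of replicate 1 held 46420 regions and that of replicate 2 held 36740. Read counts are not in the lists, so the depth of either library is unknown.

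The sequences below are those the results turn on. Each is a window of up to 200 bases centred on the summit of a region, read 5′ to 3′ in the direction of its gene from the RefSeq copy of GRCm38.p6 (mm10), with bases of annotated exons left out. Capitals mark matches to the short motifs that are defined further on. A region is named by the distance of its summit from the first annotated start of the gene, with a minus sign for positions before that start. The first set shows the 2 beta chain genes, because the regions at and before their starts are near-copies of each other.
Csf2rb −6.84 kb, chr15:78318808-78319007 (plus strand): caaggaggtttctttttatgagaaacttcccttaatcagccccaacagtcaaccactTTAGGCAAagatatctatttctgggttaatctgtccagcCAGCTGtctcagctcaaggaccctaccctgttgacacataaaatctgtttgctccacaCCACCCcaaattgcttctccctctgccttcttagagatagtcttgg
Csf2rb2 −6.98 kb, chr15:78312597-78312796 (minus strand): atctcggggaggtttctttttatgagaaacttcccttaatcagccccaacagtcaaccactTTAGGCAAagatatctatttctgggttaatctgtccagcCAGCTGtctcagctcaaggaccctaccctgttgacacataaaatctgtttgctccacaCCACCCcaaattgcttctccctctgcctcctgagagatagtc
Csf2rb +223 bp, the part in intron 1, chr15:78325910-78325989 (plus strand): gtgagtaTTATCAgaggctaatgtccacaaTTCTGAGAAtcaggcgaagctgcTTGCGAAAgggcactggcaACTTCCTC
Csf2rb2 +28 bp, the part before the start, chr15:78305722-78305792 (minus strand): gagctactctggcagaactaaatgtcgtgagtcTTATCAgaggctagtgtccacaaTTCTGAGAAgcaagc

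The second set shows a pair of Csf2rb regions whose copies at Csf2rb2 hold no region in the conservative list, each followed by the copy, written in the same direction.
Csf2rb −4.76 kb, chr15:78320894-78321093 (plus strand): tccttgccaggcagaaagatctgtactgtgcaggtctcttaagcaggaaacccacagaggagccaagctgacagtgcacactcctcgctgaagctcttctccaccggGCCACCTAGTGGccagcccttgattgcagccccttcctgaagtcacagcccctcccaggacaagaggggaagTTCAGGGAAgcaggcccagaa
Its copy before Csf2rb2, chr15:78310100-78310216 (minus strand): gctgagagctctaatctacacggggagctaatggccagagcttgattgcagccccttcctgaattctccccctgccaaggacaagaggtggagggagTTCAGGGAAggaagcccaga
Csf2rb +14.5 kb, in intron 4, chr15:78340130-78340329 (plus strand): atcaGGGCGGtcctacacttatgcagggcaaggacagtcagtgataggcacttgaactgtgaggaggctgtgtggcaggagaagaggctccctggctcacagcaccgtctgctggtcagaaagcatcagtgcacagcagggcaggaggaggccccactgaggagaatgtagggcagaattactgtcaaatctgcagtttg
Its copy inside Csf2rb2, chr15:78292971-78293159 (minus strand): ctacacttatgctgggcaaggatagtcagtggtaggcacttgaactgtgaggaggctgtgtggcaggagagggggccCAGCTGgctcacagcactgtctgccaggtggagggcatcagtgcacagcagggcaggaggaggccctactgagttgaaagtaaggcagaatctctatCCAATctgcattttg

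The third set shows the regions of the other genes that are described in most detail: both Epor regions, the Csf3r regions with GATA, PU.1, C/EBP or CTCF matches, the strongest distal region of these genes (Csf2ra), the only region of Il3ra and the strongest region of Il5ra.
Epor −133 bp, chr9:21963539-21963738 (minus strand): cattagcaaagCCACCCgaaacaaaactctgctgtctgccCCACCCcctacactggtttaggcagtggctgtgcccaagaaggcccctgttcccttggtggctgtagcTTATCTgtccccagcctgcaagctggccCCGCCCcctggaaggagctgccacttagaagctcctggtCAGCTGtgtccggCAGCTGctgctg
Epor +877 bp, the part outside exons, chr9:21962565-21962728 (minus strand): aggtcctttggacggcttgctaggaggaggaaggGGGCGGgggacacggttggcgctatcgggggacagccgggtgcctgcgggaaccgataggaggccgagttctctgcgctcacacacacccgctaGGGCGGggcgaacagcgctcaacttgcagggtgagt
Csf3r −61.6 kb, chr4:125962826-125963025 (plus strand): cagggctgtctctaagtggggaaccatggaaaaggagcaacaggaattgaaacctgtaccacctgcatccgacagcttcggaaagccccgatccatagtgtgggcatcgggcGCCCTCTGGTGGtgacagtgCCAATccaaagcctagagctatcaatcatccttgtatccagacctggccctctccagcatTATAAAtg
Csf3r −34.2 kb, chr4:125990253-125990452 (plus strand): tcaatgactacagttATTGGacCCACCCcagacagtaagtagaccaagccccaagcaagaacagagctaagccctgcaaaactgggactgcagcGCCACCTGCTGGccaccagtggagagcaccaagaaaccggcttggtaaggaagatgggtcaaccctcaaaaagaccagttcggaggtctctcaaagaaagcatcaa
Csf3r −6.64 kb, chr4:126017811-126018010 (plus strand): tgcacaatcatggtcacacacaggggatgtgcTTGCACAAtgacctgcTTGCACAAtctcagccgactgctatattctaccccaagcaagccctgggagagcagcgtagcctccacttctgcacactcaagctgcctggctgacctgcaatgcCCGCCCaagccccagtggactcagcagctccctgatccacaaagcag
Csf3r −5.39 kb, chr4:126019062-126019261 (plus strand): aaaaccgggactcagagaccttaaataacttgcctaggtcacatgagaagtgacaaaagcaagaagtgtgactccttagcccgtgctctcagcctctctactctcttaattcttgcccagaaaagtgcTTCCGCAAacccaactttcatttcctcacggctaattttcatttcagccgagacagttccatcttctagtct
Csf3r +3.64 kb, in intron 3, chr4:126028090-126028289 (plus strand): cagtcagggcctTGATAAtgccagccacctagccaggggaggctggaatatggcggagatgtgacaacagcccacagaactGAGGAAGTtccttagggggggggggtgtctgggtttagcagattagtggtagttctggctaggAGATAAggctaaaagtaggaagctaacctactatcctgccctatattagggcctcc
Csf2ra −16.5 kb, chr19:61244809-61245008 (minus strand): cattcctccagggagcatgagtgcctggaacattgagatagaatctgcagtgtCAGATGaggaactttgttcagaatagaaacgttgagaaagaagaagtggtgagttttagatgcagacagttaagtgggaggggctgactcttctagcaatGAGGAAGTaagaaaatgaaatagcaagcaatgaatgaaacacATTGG
Il3ra −522 bp, chr14:14345653-14345852 (plus strand): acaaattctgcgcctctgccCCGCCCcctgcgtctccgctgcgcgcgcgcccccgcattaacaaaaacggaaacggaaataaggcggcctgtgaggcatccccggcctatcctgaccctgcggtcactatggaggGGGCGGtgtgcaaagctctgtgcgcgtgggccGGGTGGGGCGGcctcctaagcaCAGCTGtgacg
Il5ra +5.03 kb, in intron 4, chr6:106743908-106744107 (minus strand): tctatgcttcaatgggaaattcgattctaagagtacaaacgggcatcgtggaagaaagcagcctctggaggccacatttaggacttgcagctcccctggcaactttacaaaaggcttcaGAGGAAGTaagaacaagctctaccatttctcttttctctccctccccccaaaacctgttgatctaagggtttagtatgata

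All 7 receptor genes had a promoter region. Of all protein-coding genes 63.5% had one, so an open promoter was the common state and the count says little about these genes in particular. In the own IDR-thresholded list of replicate 1 the promoters of 7 of the 7 genes were open, against 59% of all genes, and in that of replicate 2 also 7 of 7, against 54.5%. The genes differed in how strong the region was. The deposited signal of a peak has no stated scale, so it is given here with its percentile, the share of regions of the same list with a lower signal. Percentiles of a replicate are from its ranked list unless another list is named. The ranked lists also hold peaks below the IDR threshold, so these percentiles are not comparable with those of the conservative list. The strongest promoter region of each gene ranked from percentile 19.9 (Csf2ra) to percentile 86.7 (Epor) in the conservative list. In falling order came Epor (signal 12.8), Csf2rb2 (11.9), Il5ra (10.7), Csf2rb (9.05), Il3ra (6.70), Csf3r (6.23) and Csf2ra (5.99). The first 4 of these were above the median signal of all regions, 8.35, and the other 3 were in the lower part of the list. For Epor, Il5ra and Csf3r the strongest promoter region was not the one at the first start. At the first start their signals were 5.23, 7.10 and 5.85, all below that median. The only promoter region of Csf2ra did not reach its first start, and its summit lay 1146 bp after that start. The deposited −log10 p, whose test is not stated, ordered the strongest promoter regions otherwise. It was 153 for Epor, 108 for Il3ra, 90.9 for Csf2ra, 62.7 for Csf2rb, 62.1 for Csf2rb2, 46.0 for Il5ra and 41.1 for Csf3r. Strong and weak refer to signal here and below. With 2 libraries and no read counts, no test was made of which neighbours in either order differ.

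**Figure D1:**
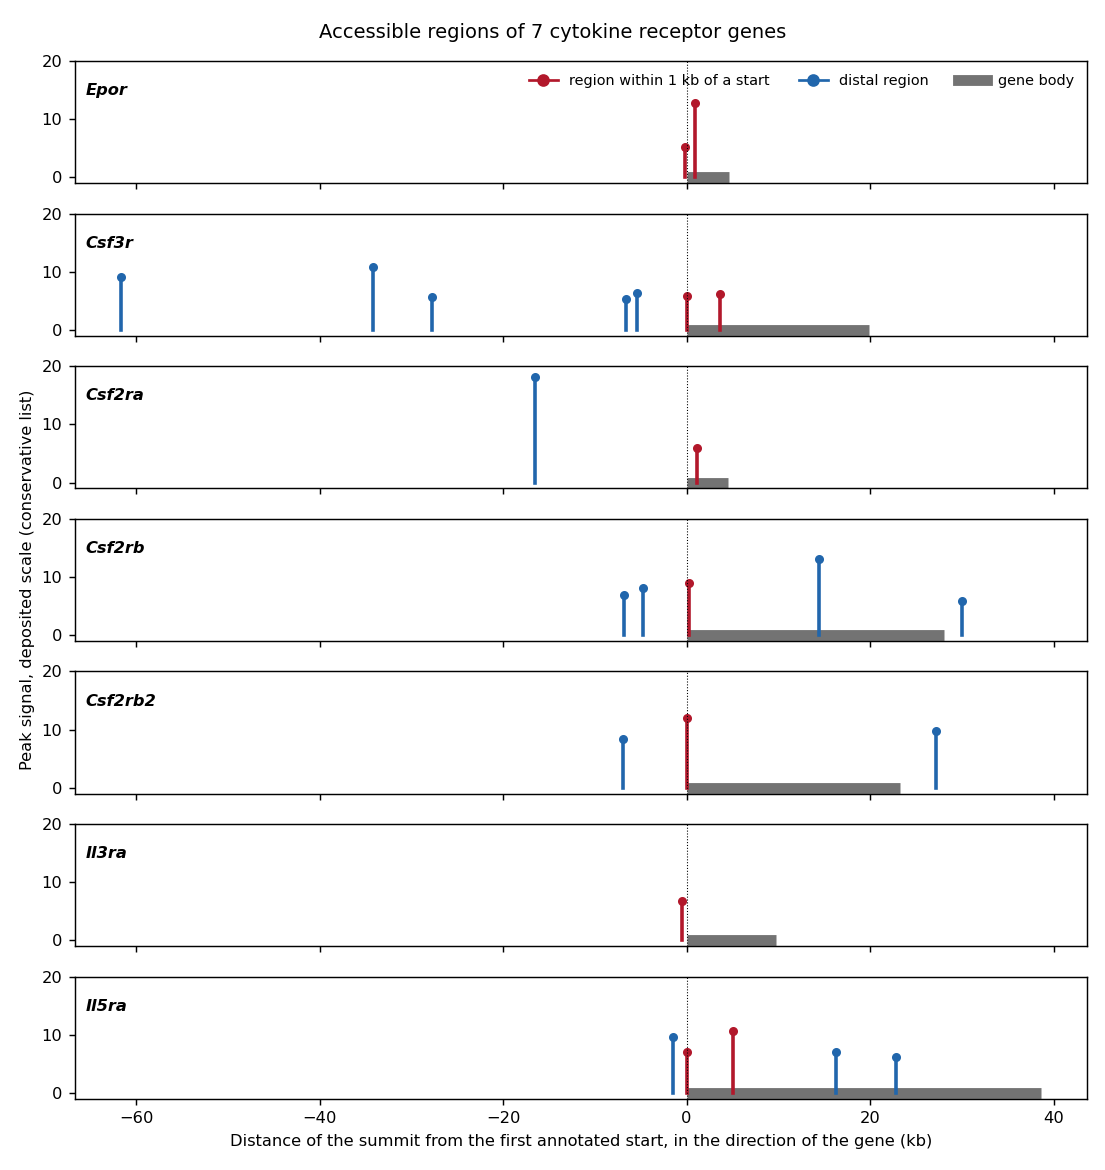
Regions of the conservative list at each receptor gene, with the distance of the summit from the first annotated start on the horizontal axis (kb, in the direction of transcription) and the deposited peak signal on the vertical axis. Red stems are regions within 1 kb of a start, blue stems are distal regions and grey bars are the gene bodies. Csf3r has 5 blue stems, all before its start, the tallest stem is the Csf2ra region at −16.5 kb (signal 18.1), and Epor and Il3ra have none in blue.

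Epor, the receptor for erythropoietin, had 2 promoter regions and no distal region. The stronger lay at chr9:21962019-21963026 in intron 1, 1008 bp wide, and its summit was 877 bp after the first start and 65 bp before a second annotated start. Its signal was 12.8, percentile 86.7, and it stood at percentile 93.0 in the ranked list of replicate 1 and 89.1 in that of replicate 2. In the own IDR-thresholded lists, which leave out peaks below the threshold, it stood at percentile 86.0 in replicate 1 and 76.0 in replicate 2. The region at the first start, chr9:21963332-21963832, was far weaker: signal 5.23, percentile 11.4. It ranked at percentile 36.0 in replicate 1 and 19.5 in replicate 2, and neither replicate's own IDR-thresholded list held it. The weaker region carried the GATA match AGATAA, on the opposite strand and 9 bases after the summit, with 2 CCACCC matches, a GGGCGG match and 2 CAGCTG matches in the same window. The stronger region held 2 GGGCGG matches and no other motif searched. The stretch nearer to an Epor start than to that of any other coding gene is short, 9.74 kb, against a median of 43.5 kb over all genes, which limits the number of distal regions the rule could give it.

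Csf3r, the G-CSF receptor, had the most regions in the conservative list, 2 promoter regions and 5 distal ones. The distal count fell to 1 without replicate 1, below the 2 of Csf2rb, and to 3 without replicate 2, level with Csf2rb. At the first start, chr4:126024353-126024860, the signal was 5.85 (percentile 18.0), with percentiles 40.9 and 45.5 in the ranked lists of replicates 1 and 2. The region at +3.64 kb, chr4:126028027-126028350, lay in intron 3, counted as a promoter region because it is 735 bp from an internal start, and had a signal of 6.23 (percentile 22.9). Its percentiles in the replicates were 40.5 and 43.2, and both promoter regions were in both replicates' own IDR-thresholded lists. Signal at the start of this gene was thus modest and close to alike in the 2 libraries. The intron 3 window held both forms of the GATA motif and the PU.1 match GAGGAAGT, the last 19 bases before the summit. All 5 distal regions lay before the gene. The nearer 2, at −5.39 kb (signal 6.43, percentile 25.5) and −6.64 kb (signal 5.30, percentile 11.9), both held C/EBP matches, 1 in the former and 2 in the latter. C/EBP factors are the main drivers of granulocyte genes, which is background and not a reading of these sites. The far regions were stronger: −34.2 kb had a signal of 10.8 (percentile 73.5) and −61.6 kb a signal of 9.09 (percentile 58.3), and each held a match to the CTCF motif. The region at −27.8 kb was weak, with a signal of 5.75 (percentile 16.9), and was missing from the ranked list of replicate 2. Of the 5, only −34.2 kb was in the own IDR-thresholded lists of both replicates. The next coding gene start after that of Csf3r was Mrps15, 56.6 kb from the −34.2 kb summit and 84.0 kb from the −61.6 kb summit.

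Csf2ra, the alpha chain for GM-CSF, had by signal a weak promoter region and the strongest distal region of the 7 genes. By the deposited −log10 p its promoter region was not weak: 90.9, against 62.7 at Csf2rb and 153 at Epor. By signal, its strongest promoter region ranked below those of the other 6 genes in the conservative list and in that of replicate 2. In the IDR-thresholded list of replicate 1 that of Csf3r ranked lower (percentile 8.45 against 10.3). The promoter region, chr19:61225451-61227839, was the widest of the 25 at 2389 bp. It covered several of the 7 annotated starts and had a GC content of 67.2%, against a median of 58.5% in all promoter regions. Its signal was 5.99 (percentile 19.9), with percentiles 44.2 in replicate 1 and 40.4 in replicate 2. The distal region at −16.5 kb, chr19:61244213-61245453, had a signal of 18.1, percentile 99.0 of the whole list. Where starts of genes of any biotype count, it is no longer assigned to Csf2ra, which then has 0 distal regions. Replicate 1 placed it at percentile 97.6 and replicate 2 at 99.3, so both libraries ranked it among their strongest regions. Its window held GAGGAAGT 54 bases after the summit and CAGATG 46 bases before it. The window was not unique: it aligned over 194 positions, gaps included, at 92.3% identity to chr10:51454028-51454220, where the conservative list has a region of signal 10.3 (percentile 69.8), 26.5 kb from a start of Gm49339. How reads that fit both places were treated is not given in the sources used here, so the signal at either place is uncertain.

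Il3ra, the alpha chain for IL-3, had a single region, chr14:14345459-14346580, with its summit at −522 bp inside the overlapping gene Gm48860. Its signal was 6.70 (percentile 29.3), and its percentiles in the replicates were 51.4 and 51.0, nearly equal. It was 1122 bp wide, had a GC content of 65.2%, and held 3 GGGCGG matches, 1 of them overlapping a CCACCC match on the other strand, and 1 CAGCTG match. It had no match to the GATA, PU.1, C/EBP, RUNX or STAT motifs.

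Il5ra, the alpha chain for IL-5 and a gene of eosinophils and their precursors, had 2 promoter and 3 distal regions. The strongest, at +5.03 kb in intron 4 (chr6:106743671-106744132), had a signal of 10.7 (percentile 73.0) and held GAGGAAGT 20 bases after the summit. It ranked at percentile 83.7 in replicate 1 and 67.9 in replicate 2, and the IDR-thresholded list of replicate 2 did not hold it. The region at the first start, +57 bp (chr6:106748854-106749448), had a signal of 7.10 (percentile 34.4), with percentiles 43.5 and 55.6, and here it was replicate 1 whose IDR-thresholded list did not hold it. The open call of Il5ra in the 2 libraries therefore rested on different regions. The region at −1.46 kb (chr6:106750284-106750713) had a signal of 9.61 (percentile 63.4), was in both replicates' lists and held none of the motifs searched. The intron 9 region at +16.3 kb and the intron 10 region at +22.8 kb were weaker, with signals of 7.10 and 6.10. Both held a GATA match, and neither was in a replicate's own IDR-thresholded list.

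The 2 beta chain genes lie head to head on chromosome 15, with their first starts 20.031 kb apart and 3 distal regions between them. Csf2rb, the common beta chain, had 1 promoter region and 4 distal regions, and Csf2rb2, the IL-3 beta chain, 1 and 2. The promoter regions, chr15:78325655-78326268 for Csf2rb and chr15:78305405-78305995 for Csf2rb2, were identical at 552 of 589 aligned positions with gaps included, 93.7%. Signals were 9.05 (percentile 57.7) at Csf2rb and 11.9 (percentile 81.7) at Csf2rb2. In the ranked list of replicate 1 the percentiles were 69.3 and 84.0, and in that of replicate 2 they were 68.9 and 86.2, so Csf2rb2 ranked higher in both libraries. Both windows held the same 4 matches: TGATAA, GAGGAAGT, TTCNNNGAA and CAGATG. The Csf2rb window held AGATAA and TTGCNNAA besides.

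The copying went beyond the starts. The regions at −6.84 kb of Csf2rb (chr15:78318495-78319194) and −6.98 kb of Csf2rb2 (chr15:78312244-78313089) were identical at 657 of 681 aligned positions, 96.5%. Within the windows at their summits only 2 of 193 aligned bases differed, and both held the same matches to TTGCNNAA, CAGCTG and CCACCC. Their signals were 6.99 (percentile 32.8) and 8.42 (percentile 50.9). In replicate 1 they ranked at percentiles 50.6 and 59.8, and in replicate 2 at 47.6 and 62.7, in the same order by signal in both libraries. By −log10 p the order differed between the libraries: 21.8 and 20.4 in replicate 1, 17.3 and 19.7 in replicate 2. With sequences this close, a read may fit both copies, and how such reads were treated is not given in the sources used here. The values of these 4 regions are thus uncertain in how they divide between the genes, and the part of shared reads was not tested. The longest stretches of the main transcripts are also near-copies, identical at 95.1% of 3131 aligned positions and 83.5% of 1374 more.

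The other regions of the pair had no counterpart among the regions of the conservative list at these genes. The Csf2rb region at +14.5 kb in intron 4 (chr15:78339758-78340375) was the strongest of this gene, with a signal of 13.1 (percentile 87.8) and percentiles of 86.9 in replicate 1 and 90.1 in replicate 2. A copy of most of its window, 86.8% identical over 190 aligned positions with gaps included, lies inside Csf2rb2 at chr15:78292971-78293159. No region covered that copy in the conservative list, the ranked list of the series, the ranked list of either replicate or the archived list. The nearest region in the ranked list of the series lay 156 bp away and was weak, with a signal of 4.45 and a score of 172 against the threshold of 540. The copy was sought for the window alone and not for the whole region of 618 bp. Whether the weak region lies in a copy of the rest was not tested. The Csf2rb region at −4.76 kb (chr15:78320764-78321184) had a signal of 8.20 (percentile 48.5), was in the IDR-thresholded lists of both replicates and held matches to CTCF and to TTCNNNGAA. Its copy at chr15:78310100-78310216, 81.0% identical over 121 aligned positions, held no region in any of these lists. The CTCF match, bases 108 to 119 of the window, lies inside the aligned stretch of bases 87 to 199, and the copy had no CTCF match but kept the TTCNNNGAA match. Whether the sequence difference and the missing region are linked was not tested. The last Csf2rb region, at +30.0 kb, had a signal of 5.94 (percentile 19.1), was missing from the ranked list of replicate 2, and its window had 20 other matches in the genome. Csf2rb2 had 1 region past its end, at +27.2 kb (chr15:78278346-78278827), with a signal of 9.75 (percentile 64.8), a TGAGTCA match and no other copy of its window in the genome.

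**Figure D2:**
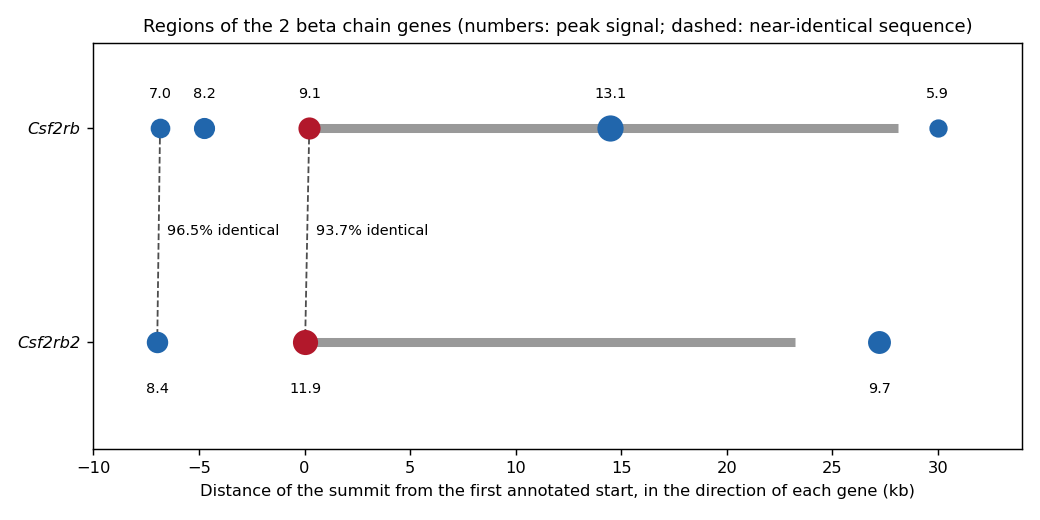
Regions of Csf2rb (upper row) and Csf2rb2 (lower row) by distance of the summit from the first start of each gene (kb, in the direction of transcription). Circle area and the number beside it give the deposited signal, red is a promoter region, blue a distal region, grey bars are the gene bodies and dashed lines join regions with near-identical sequence. The 2 joined pairs are 96.5% and 93.7% identical, and the Csf2rb2 region of each pair has the higher signal (8.42 against 6.99, and 11.9 against 9.05).

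Motif matches were sought in the 200 bases around each summit, on both strands, and read beside the share of all promoter or distal regions whose window holds the same match. A match is a description of letters and not of a bound factor. The GATA motif was searched as AGATAA and TGATAA, which share the letters GATAA. It was found in 5 of the 10 receptor promoter regions, where 8.94% of all promoter regions have it, and in 2 of the 15 distal regions, where 22.1% have it. The promoter regions with it were those of Epor (−133 bp), Csf3r (+3.64 kb), Csf2rb, Csf2rb2 and Il5ra (+57 bp). The PU.1 motif GAGGAAGT was found in 4 of the 10 promoter regions, against 4.28% of all, and in 2 of the 15 distal regions, against 9.66%. Those 4 were Csf3r (+3.64 kb), Csf2rb, Csf2rb2 and Il5ra (+5.03 kb), and 3 of them held the GATA motif as well. In windows of 50 bp each side, AGATAA was left in 2 promoter regions and TGATAA in 1, against 3.08% and 1.99% of all. No GATA match was then left at Csf2rb or Csf2rb2, whereas GAGGAAGT stayed in 4 promoter regions, against 3.05%. Since the Csf2rb and Csf2rb2 windows are copies, these counts rest on fewer separate sequences than regions.

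The STAT motif TTCNNNGAA, the form bound by STAT5, was present in 3 promoter regions (Csf2ra, Csf2rb and Csf2rb2, the last pair being copies), against 4.03% of all, and in 1 distal region (Csf2rb −4.76 kb), against 5.37%. The C/EBP motif TTGCNNAA was present in 1 promoter region (Csf2rb), against 6.33%, and in 4 distal regions (Csf3r −6.64 and −5.39 kb and the copied regions of the beta genes), against 10.9%. CTCF, searched by its consensus, was present in 3 distal regions and no promoter region, against 8.41% and 2.58% of all. The SP motif GGGCGG was found in 4 promoter regions, a share below that of all promoter regions, 47.5%, and in 3 of the 15 distal regions, a share above that of all distal regions, 8.29%. The ETS motif CCGGAAGT, held by 5.15% of all promoter regions, was found in none of the 25 windows. Among the rest, CCACCC (KLF) was found in 3 promoter regions against 26.4% of all, CCAAT (NFY) in 1 against 28.8%, and the E-box forms CAGATG or CAGCTG in 5 against 20.8%. TGTGGTT (RUNX) was found in 2 distal regions against 13.3% of all, TGAGTCA (AP-1 or NF-E2 core) in 1 against 7.46% and TATAAA in 1 against 7.24%.

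**Figure D3:**
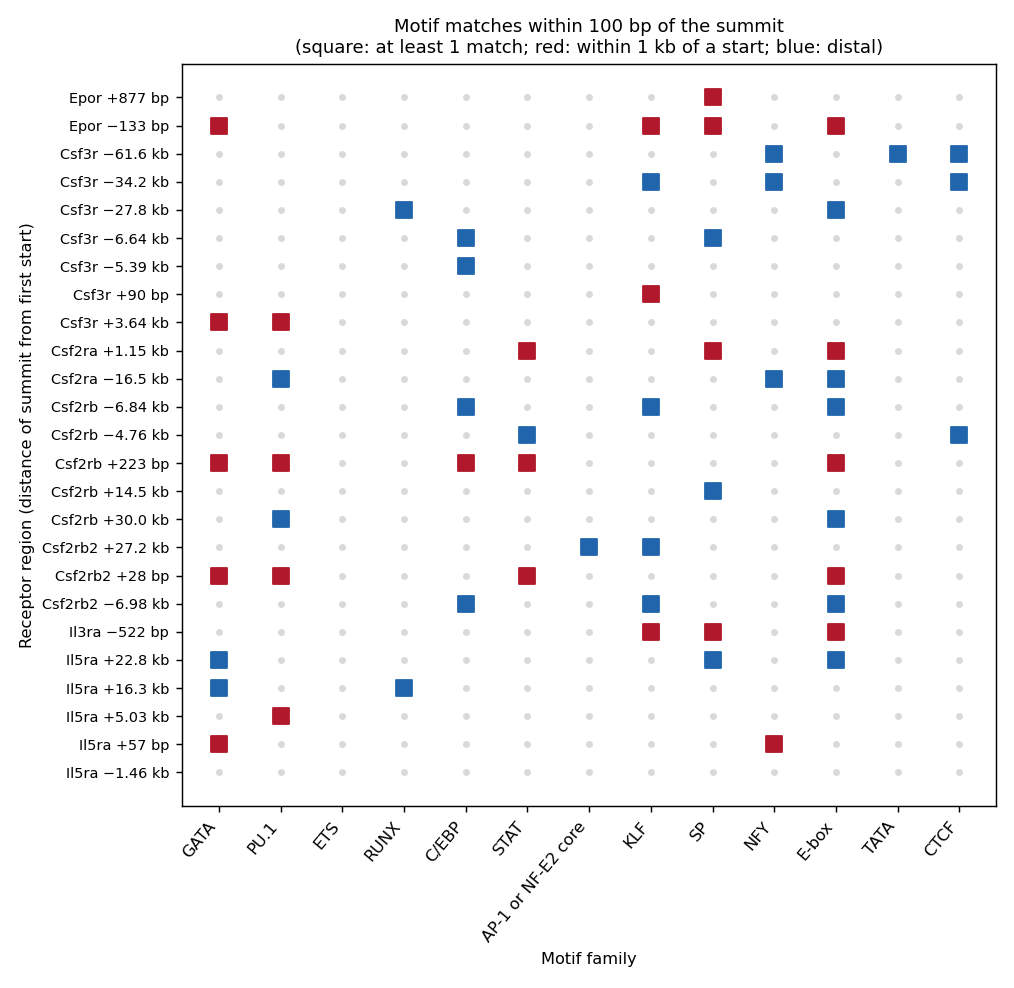
Motif families (horizontal axis) matched within 100 bp of the summit of each of the 25 receptor regions (vertical axis, named by gene and distance from the first start). A square marks at least 1 match, red for promoter and blue for distal regions, and a grey dot marks none. The GATA column has 7 squares, 5 of them red, the PU.1 column has 6, and the ETS column has none.

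Promoter sequence was also read from the annotated first start, without regard to regions. Over the 150 bases before the first start, AGATAA was present for Epor and Il5ra, and TGATAA for Csf2rb2, where 4.71% and 3.94% of all coding genes have them. GGGCGG was present for Epor, Csf2ra and Il3ra (35.6% of all genes), and TATAAA was not found for any of the 7 (7.28% of all genes). For Csf2rb, the GATA, PU.1 and STAT matches of its region lie after the first start, in the summit window, and the 150 bases before that start held TTGCNNAA alone. Another annotated start of Csf2rb, at 78325990, lies 15 bp after the summit. TGATAA, GAGGAAGT and TTCNNNGAA lie just before that other start, in chr15:78325910-78325989, and AGATAA lies after it. Whether TGATAA counts as upstream at Csf2rb, as it does at Csf2rb2, thus depends on the start used. The RefSeq promoter table had entries for 6 of the 7 genes, without Csf2rb, and 6 of 6 were identical to the genome sequence used here.

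Distal regions were unevenly spread over the 7 genes: 5 for Csf3r, 4 for Csf2rb, 3 for Il5ra, 2 for Csf2rb2, 1 for Csf2ra and 0 for Epor and Il3ra. At least 1 was assigned to 5 of the 7 genes, where 59.5% of all protein-coding genes have at least 1, and at least 4 to 2 of the 7, where 20.1% have that many. Over all genes the median was 1 and the mean 2.10. For genes other than the 7, a promoter region still counted as distal if its summit was more than 1 kb from the nearest start. For the 7 genes it did not, which set aside Il5ra +5.03 kb, whose summit is 1101 bp from an internal start. Counts and densities of the 7 genes and of all genes are therefore not under quite the same rule. Set against the length of genome nearest to each gene, the 7 genes had 15 regions in 346 kb, or 4.33 per 100 kb, and all genes had 2.81 per 100 kb. Csf2rb was the densest, with 9.60 per 100 kb over 41.7 kb, then Il5ra with 7.61 over 39.4 kb. Csf3r, with the largest count, had 4.24 per 100 kb because 118 kb of genome lie nearest to it. The nearest start is a rule of distance, and no contact between region and gene was measured. The strongest of the 15 were the regions of Csf2ra at −16.5 kb and Csf2rb at +14.5 kb, followed by that of Csf3r at −34.2 kb.

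**Figure D4:**
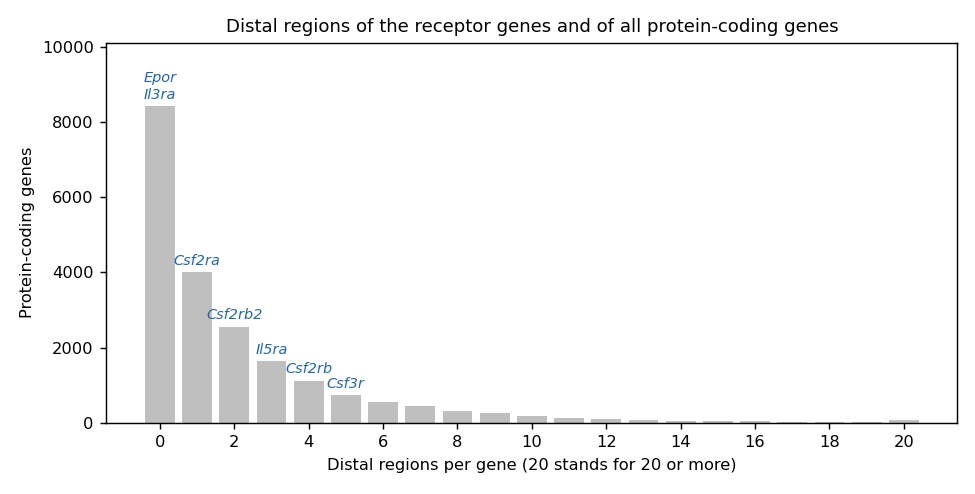
Number of protein-coding genes (vertical axis) with each number of distal regions (horizontal axis, with 20 standing for 20 or more). Grey bars count all 20807 genes and the names mark the bars of the 7 receptor genes, from 0 for Epor and Il3ra to 5 for Csf3r. For genes other than the 7, the bars include promoter regions with a summit more than 1 kb from the nearest start.

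The replicate lists held the receptor regions unequally. Of the 25 regions, 13 (52%) met a region of the own IDR-thresholded lists of both replicates, 5 of replicate 1 alone, 1 of replicate 2 alone and 6 of neither. Among promoter regions 7 of 10 (70%) were met by both, where 69.1% of all promoter regions were, and among distal regions 6 of 15 (40%), where 44.3% of all distal regions were. The receptor regions were therefore met by both lists about as often as regions of their class. The 6 met by neither were Epor −133 bp, Csf3r −27.8 and −6.64 kb, Csf2rb +30.0 kb and Il5ra +16.3 and +22.8 kb. Without the IDR threshold, the ranked list of replicate 1 held 25 of the 25 and that of replicate 2 held 23, without Csf3r −27.8 kb and Csf2rb +30.0 kb. The 6 regions met by neither list had signals below the median of the conservative list. Replicate 1 has the longer list, and its labels name 2 sequencing instruments where those of replicate 2 name none; the part of either in these counts was not tested.

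**Figure D5:**
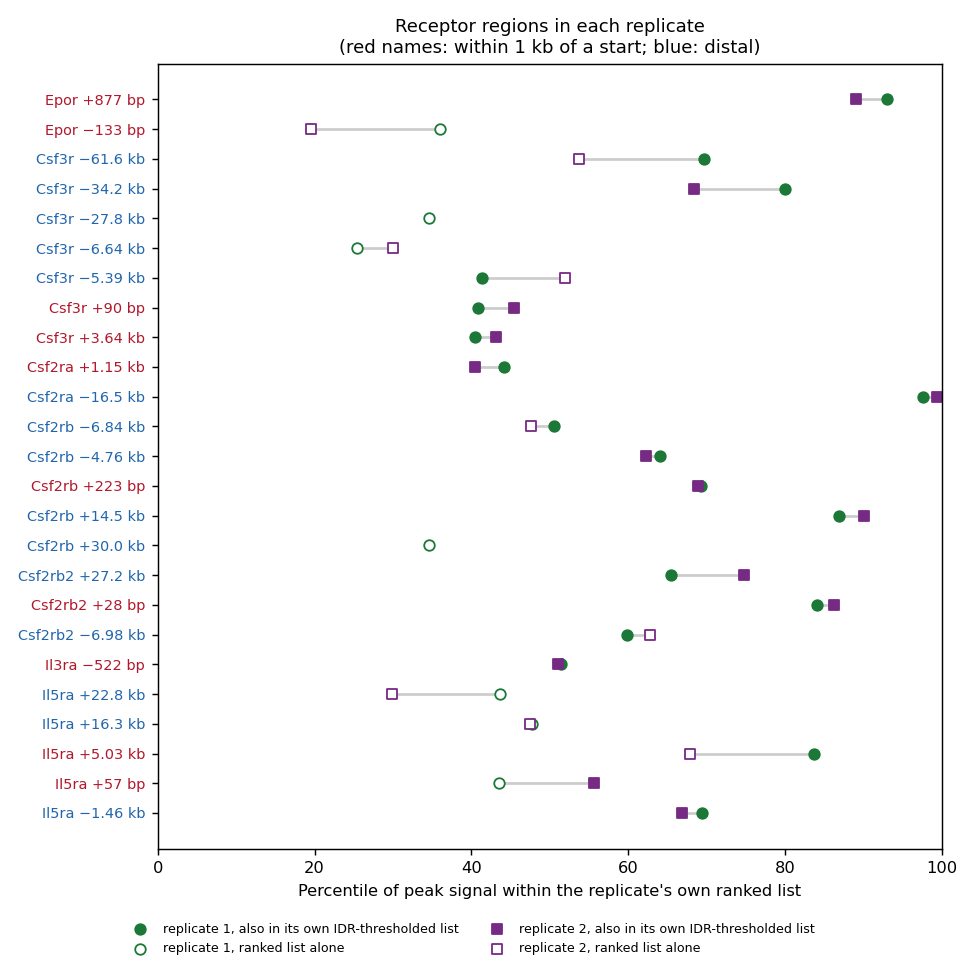
Percentile of peak signal within each replicate's own ranked list (horizontal axis) for the 25 receptor regions (vertical axis; red names are promoter regions, blue names distal regions). Green circles are replicate 1 and purple squares replicate 2, filled where the replicate's own IDR-thresholded list also holds the region. The Csf2ra −16.5 kb region lies at 97.6 and 99.3, and 2 regions have no purple square. The Epor −133 bp region lies at 36.0 and 19.5, with both markers unfilled because neither own IDR-thresholded list holds it.

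The rule has 2 borders close to receptor regions. Just inside the distance of 1 kb was the Il5ra region at +5.03 kb, whose edge is 977 bp from an internal start, and just outside was that at −1.46 kb, whose edge is 1247 bp from the first start. At the IDR score of 540, the lowest scores inside were 562 (Csf3r −6.64 kb) and 592 (Csf3r −27.8 kb). The highest outside were 497, for a region at chr15:78355075-78355270 beyond the end of Csf2rb, and 478, for one at chr14:14348220-14348678 near internal starts of Il3ra. In all, 14 regions of these genes in the ranked list of the series fell below the threshold, 2 of them promoter regions, both of Il3ra, and 12 distal. None belonged to Epor.

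The other genes of the pathway were read in the same way, as counts of open promoters beside the 63.5% of all genes. Of the 21 signalling genes (kinases, STAT factors, adaptors and feedback inhibitors), 21 had a promoter region, among them Jak2 (signal 6.38), Stat5a (10.7, percentile 72.7), Stat5b (4.89, percentile 8.35) and Cish, a STAT5-induced inhibitor (9.62, percentile 63.5). In the own lists 21 were open in replicate 1 and 19 in replicate 2, without Jak2 and Stat5b. Of the 5 ligand genes, 2 had a promoter region, Epo (signal 8.94) and Csf3 (10.8), and Csf2, Il3 and Il5 had none. In the own lists 2 were open in replicate 1 and 1 in replicate 2, without Csf3. Csf2 nevertheless had 5 distal regions nearest to its start. Of 21 other class I receptor genes, 14 had a promoter region, and Il2ra, Il2rb, Il9r, Osmr, Lepr, Cntfr and Il31ra had none. In the own lists 11 and 10 of these 21 were open.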

How the data were processed

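ATAC-seq peak lists of 2 libraries of 1 group were used, both taken as replicates from their labels. Per the labels, coordinates are on mm10. For the aligner, the peak caller and any transposase shift of reads, the sources used here give nothing. The authors deposited each peak with a signal value of unstated scale, −log10 p and q values and a score. Signal only ranked regions within a list, and the deposited score of at least 540 marks peaks past the IDR threshold. One archived list was made from earlier files, per the deposited notes. Of 13 deposited lists, 12 were used. Depth is unknown, so no value has a counting interval and no test was made.

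Overlapping peaks were merged, keeping the strongest summit. GENCODE M21 gave the starts of all transcripts of protein-coding genes. Overlap meant at least 1 bp. Motifs were sought within 100 bp of a summit. Other copies were sought with BLAST+ 2.17.0 (E-value at most 1e-05). Python 3.11.15, NumPy 2.4.6, pandas 2.3.3, pysam 0.24.0, samtools 1.23.1 and matplotlib 3.10.9 were used. Merging, assignment and motif search were tested on simulated data, and the overlap of lists was not. All 7 members, their regions and neighbours, and any gene of the ligand, signalling, receptor and marker lists could be named. Members and lists were chosen with earlier results of these data known. Alas2, on chromosome X, was not tested. Alternatives were other lists, either replicate alone, other windows, starts and assignments, other overlap rules and narrower motif windows; the ranked list of the series and the distal count from coding transcripts alone were added after seeing the data.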

Additional observations from a re-analysis of the deposited data

How the results depend on the processing

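The count of 7 receptor genes with a promoter region was the same in all alternatives tried except the upper 50% of regions by signal, where 4 remained (Epor, Csf2rb, Csf2rb2 and Il5ra). The distal regions, 15 in the conservative list, moved with the list: 26 in the replicated list, 48 in the archived list, 28 in the pseudoreplicated list of the series, 27 in the ranked list of the series and 7 in the upper 50% by signal. The series IDR-thresholded list gave 16. Leaving out each replicate in turn gave 6 (without replicate 1) to 10 (without replicate 2), with 7 genes open at the promoter in both. Assignment within 50 kb gave 14, to genes of any biotype 10, from the region's edge 15 and to coding transcripts alone 16. The 13 regions met by both replicates became 23 with the own pseudoreplicated lists and 23 with the own ranked lists, 11 with 50% reciprocal overlap and 13 with summits within 150 bp. The 60 pairs of a region and a motif with at least 1 match fell to 36 in windows of 50 bp each side, which are shorter. In the own IDR-thresholded lists, which differ in length, the promoter percentile was 86.0 and 76.0 for Epor (replicates 1 and 2), 8.45 and 9.06 for Csf3r, 10.3 and 6.37 for Csf2ra, 40.8 and 35.3 for Csf2rb, 68.1 and 69.6 for Csf2rb2, 16.0 and 13.2 for Il3ra, and 67.4 and 17.4 for Il5ra, whose strongest listed region differs between them. No paired analysis was possible because the study has 1 group. Unknown depth limits all counts, and a region missing from a list may be too weakly covered to be called.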
